A study of Homo sapiens with 3 samples.

Results

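The genes described here are the nuclear genes of the mitochondrial respiratory chain and ATP synthase in 22Rv1, a human prostate cancer cell line. Members were taken by symbol alone: NDUFA, NDUFB, NDUFC, NDUFS or NDUFV with a number, SDHA to SDHD, symbols starting with UQCR or ATP5, CYC1, and symbols starting with COX4 to COX8, without pseudogenes. The rule took 76 of 15466 symbols in the deposited table. Of these, 68 encode subunits of complexes I to IV or of ATP synthase, and 8 are paralogues, near copies, assembly factors or read-through genes. All cells carried a plasmid for 48 h: MLPH transcript V1 (20 μg), MLPH transcript V4 (20 μg) or an empty vector. MLPH encodes melanophilin, which links Rab27a on melanosomes to myosin Va. The promoter of the plasmids is not given in the sources used. The study has 3 samples, 1 per group, and the V1 and V4 libraries are compared. The submitters' design text mentions a technical replicate of each, but the table holds 1 column for V1 and 1 for V4. The empty-vector sample is not analysed here, because no column of the table could be tied to it by name.

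Values are read counts of poly(A) RNA, always given for the V1 library first and the V4 library second. The V1 library held 9248734 counts in named genes and the V4 library 9604272. CPM is a gene's count over that total times 1000000, and 8823 genes with a mean CPM of at least 1 were kept. Ratios are V4 over V1 after TMM scaling, which sets the bulk of genes to a ratio of 1, and each has a 95% exact interval of counting error. With 1 library per group there is no replicate check and no test across samples. Every "higher" or "lower" below means that this interval excluded 1, and it describes this pair of libraries. Markers of a prostate epithelial line were present: KRT8 had 2085 and 1636 counts and EPCAM 2003 and 2001. All 7 markers of the line had counts, summing to 1487 and 1624 CPM. Of 7 markers of other cell types 4 had a count, summing to 10.9 and 11.8 CPM, and PTPRC, CD3E and CDH5 were at 0 in both libraries. The muscle genes ACTA1, CKM and DES had 98 and 92, 1 and 13, and 2 and 2 counts, and the endothelial gene VWF had 0 and 6. The intervals of CKM and VWF lay above 1, and the part of such RNA in the results was not tested.

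Complex I oxidises NADH and complex II oxidises succinate, both passing electrons to ubiquinone. Complex III hands them on to cytochrome c, complex IV reduces oxygen, and ATP synthase uses the proton gradient that complexes I, III and IV build. Most subunits are encoded in the nucleus, a small core in mitochondrial DNA, and complex II in the nucleus only. The nuclear genes are known targets of the transcription factors NRF1, GABPA (an ETS factor) and YY1.

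Most members lay slightly lower in the V4 library. Of 76 members, 69 were kept, and their median log2 ratio was -0.12, beside -0.0040 over all 8823 kept genes. The interval lay below 1 for 39 members, above 1 for 5, and included 1 for 25. Over all kept genes 21.0% lay below 1 and 19.9% above. At a fold of at least 1.5 only NDUFC2 was lower and only NDUFS1 higher, against 7.1% and 5.51% of all kept genes. At a gap of at least 25%, 7 members were lower and 1 higher, against 12.6% and 11.4%. The share of intervals that exclude 1 grows with counts, and members are abundant. Among 1725 genes at a mean CPM of at least 100, 34.5% lay below 1 and 35.6% above. The 44 members among them had 29 below and 4 above, with a median of -0.11. At that level 10 of the 1725 genes were at least 1.5-fold lower and 10 higher, and 0 of the 44 members in either direction. At the 25% gap 114 of the 1725 genes and 3 of the 44 members were lower. Members together took 2.26% of V1 counts (exact binomial interval 2.25 to 2.27) and 2.10% of V4 counts (2.09 to 2.11).

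**Figure D1:**
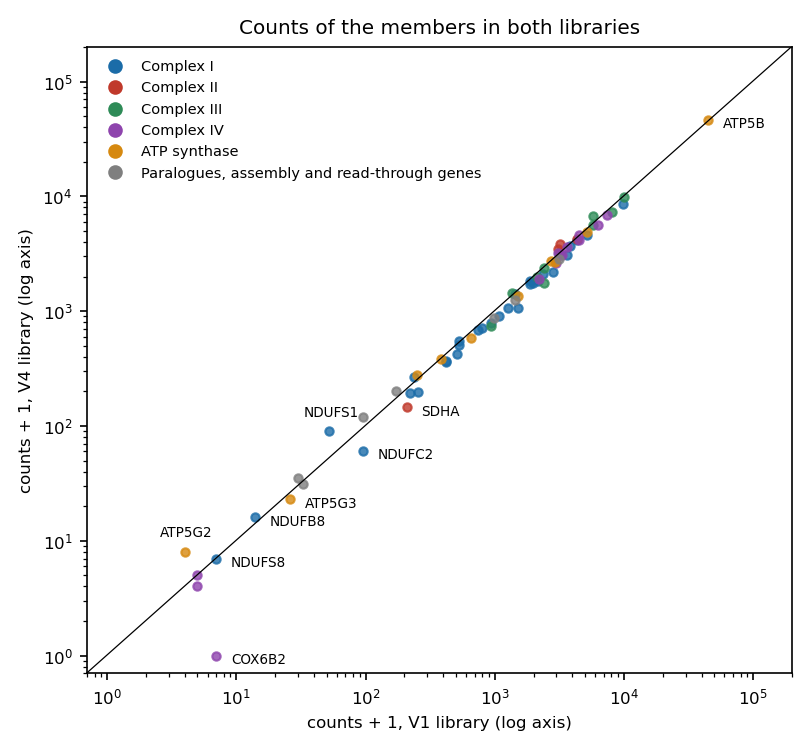
Counts plus 1 of the members in the V1 library (horizontal, log axis) and the V4 library (vertical, log axis), coloured by complex. The line is a ratio of 1 after TMM scaling. Most points lie near the line, from ATP5B at 44673 and 46521 counts downward. Among members with few counts, NDUFC2 (95 and 60), NDUFS1 (51 and 89), COX6B2 (6 and 0) and ATP5G2 (3 and 7) lie off it. The 2 members at 0 in both libraries are not drawn.

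The length of the transcripts went with this shift. Length was the median over a gene's protein-coding transcripts in GENCODE v29. The 872 kept genes under 1000 nucleotides, members included, had a median log2 ratio of -0.14, with 39.7% lower and 9.40% higher. The 42 members in that class had a median of -0.16, with 27 lower and 2 higher. At a mean CPM of at least 100, 225 short genes that are no members had a median of -0.14, with 61.3% lower and 15.6% higher. The 29 short members at that level had a median of -0.12, with 72.4% lower and 6.90% higher. In this class the abundant members and other genes had medians close to each other. In the longer classes the members' medians lay below those of the other genes, by little among abundant genes of the middle class. From 1000 to under 2000 nucleotides, 17 members had a median of -0.14, with 52.9% lower, beside -0.08 and 27.2% over 2448 kept genes, members included. At a mean CPM of at least 100 in that class, 9 members had a median of -0.082, with 66.7% lower and 22.2% higher. The 479 other genes at that level had a median of -0.074, with 46.8% lower and 21.1% higher. At 2000 nucleotides and over, the 6 abundant members had a median of -0.04, with 2 lower and 0 higher, beside 0.08 over 959 other abundant genes, of which 20.5% were lower and 48.9% higher.

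With the length trend of all genes removed, the members' median was -0.06, and 24 were lower and 10 higher, in place of 39 and 5. Over all genes the same step gave a median of -0.02, with 21.7% lower and 16.8% higher. With a GC trend removed in its place, the members' median was -0.10, with 33 lower and 7 higher, beside 0.01, 17.8% and 18.9% over all genes. Of the 39 lower members, 17 lost that call without the length trend and 11 without the GC trend.

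**Figure D2:**
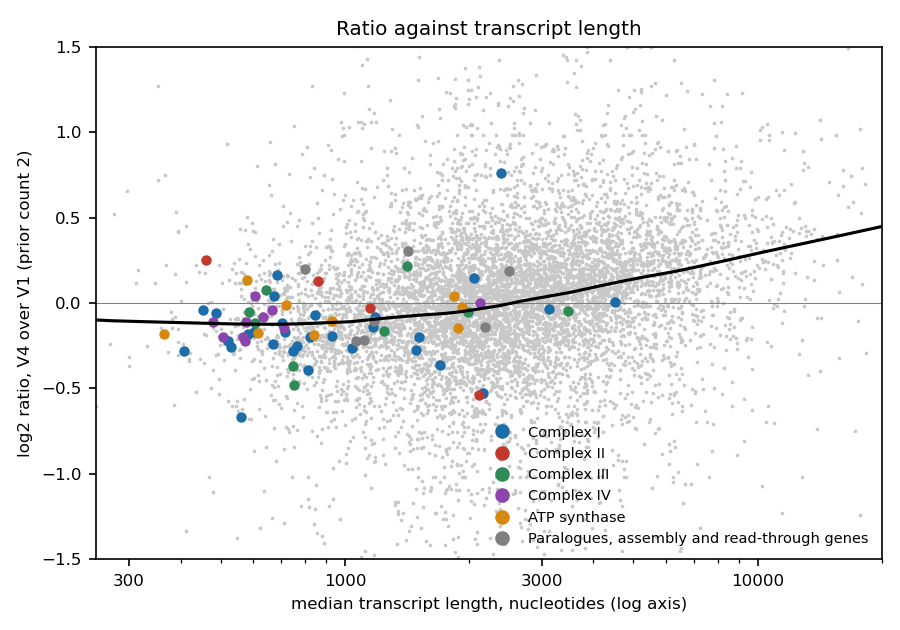
Log2 ratio of V4 over V1 (vertical) against median transcript length in nucleotides (horizontal, log axis). Grey points are kept genes that are no members, coloured points are members, and the line is the lowess trend over 8447 kept genes with a length. Most members sit at the short end, where the trend lies below 0. The axes leave out 249 grey points.

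Across the 69 kept members the log2 ratio varied weakly with log2 length (Pearson r 0.18, Spearman rho 0.17) and with GC content (r -0.30, rho -0.38). Over 8447 kept genes the rho was 0.24 for length and -0.34 for GC. These values are descriptions over genes of the same pair of libraries and carry no p-value.

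Complex I held the members with the largest gaps. Of its 31 members, 30 were kept, 18 were lower, 1 was higher and 11 had an interval that included 1. The median log2 ratio was -0.19, and it was -0.10 without the length trend and -0.09 without the GC trend. NDUFC2, a membrane-arm subunit, had 95 and 60 counts, 1.61-fold lower (interval 1.15 to 2.26). NDUFA11, another membrane-arm subunit, had 1527 and 1073 counts, 1.44-fold lower (1.33 to 1.56). NDUFS6, which carries zinc in the matrix arm, had 2846 and 2198 counts, 1.31-fold lower (1.24 to 1.39). Of these, NDUFC2 rests on few reads, and without the length trend its log2 ratio was -0.56, which is under 1.5-fold. NDUFS6 stood at -0.29 and NDUFA11, whose annotated median length is 2154 nucleotides, at -0.51 without that trend, with intervals still below 1. With a GC trend removed in its place, NDUFA11 stood at -0.32 in place of -0.53, NDUFS6 at -0.28 and NDUFC2 at -0.68. Their intervals lay below 1 there too. NDUFB2, the complex I member with the most counts, had 9802 and 8502 counts and was 1.17-fold lower (1.14 to 1.20). The 12 other lower accessory genes ran from NDUFA6 at 1.06-fold to NDUFA5, with 252 and 198 counts, at 1.29-fold.

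The 24 accessory subunits among the members, which surround the catalytic core, had 16 lower, 0 higher and 8 neither. Their median log2 ratio was -0.185, close to the -0.188 of the 6 kept core genes. Without the length trend the accessory and core medians were -0.11 and -0.08. With a GC trend removed they were -0.11 and -0.02, no longer close. The range of the accessory genes was -0.67 to 0.16 on the log2 scale. The core subunits, which carry the flavin and the iron-sulfur clusters, were mixed: of 6 kept, 2 were lower, 1 was higher and 3 were neither. NDUFS3 and NDUFS7 were the lower ones, at 1.13-fold (1.06 to 1.21) and 1.20-fold (1.10 to 1.32). NDUFS3 lost this call without the length trend and NDUFS7 without the GC trend. NDUFS1, which holds several of the iron-sulfur clusters, was the higher one. It had 51 and 89 counts, a ratio of 1.72 (1.21 to 2.48). The flavin subunit gene NDUFV1 had 219 and 193 counts, with an interval that included 1. NDUFB8, an accessory subunit, had only 13 and 15 counts.

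**Figure D3:**
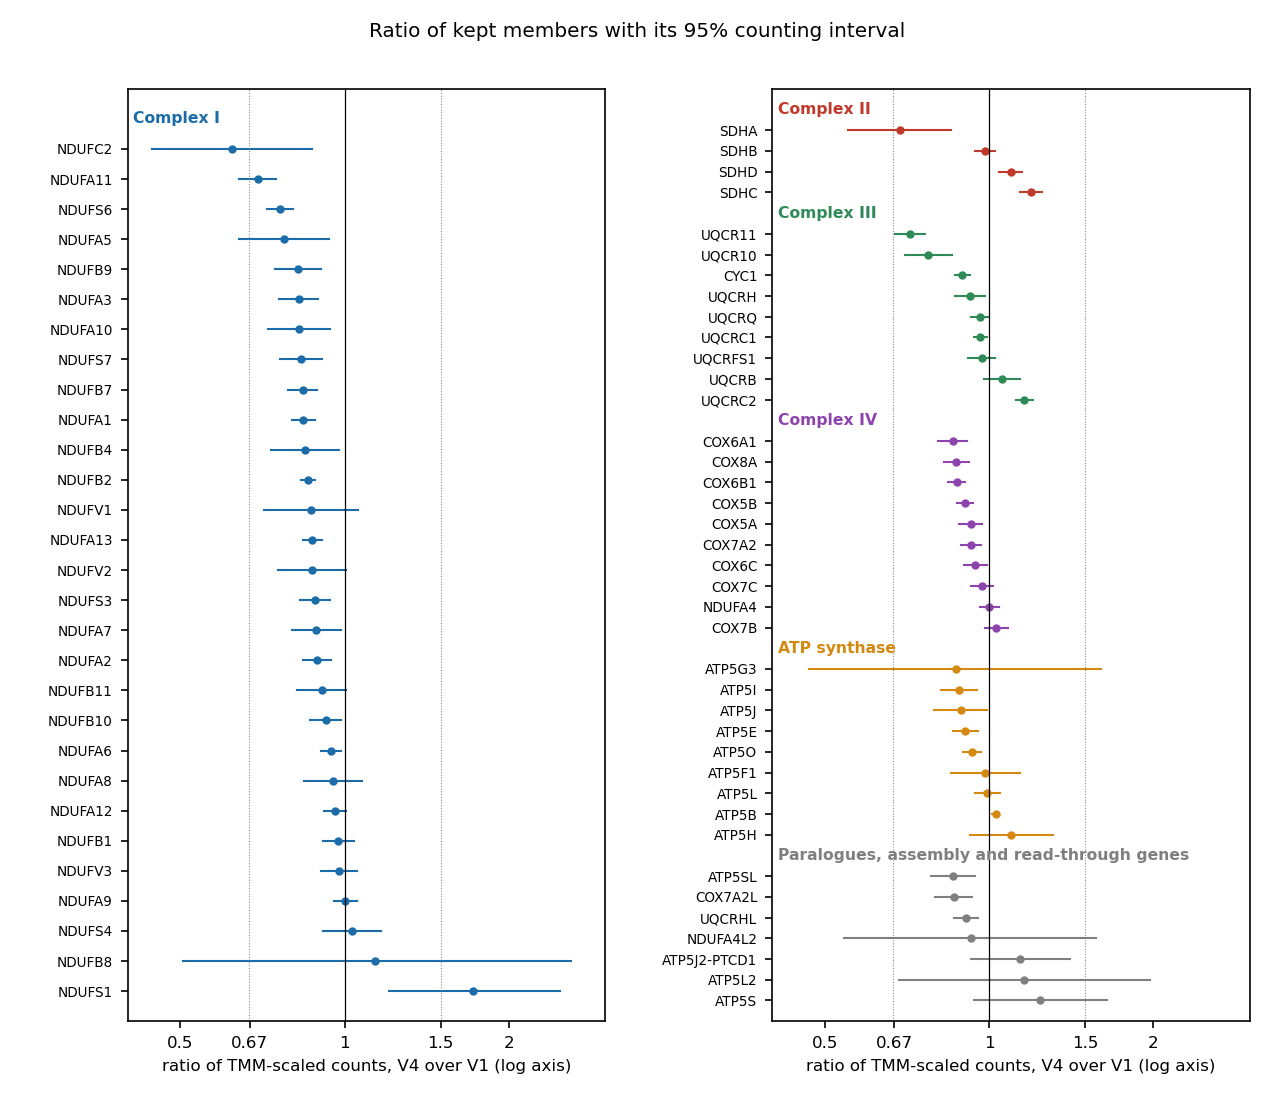
Ratio of TMM-scaled counts, V4 over V1 (log axis), for 68 kept members by complex, with points for ratios and bars for 95% exact counting intervals. Dotted lines mark a 1.5-fold difference. Complex I points lie mostly left of 1, SDHC, SDHD and UQCRC2 lie right of 1, and NDUFS1 is the only member past 1.5-fold on that side.

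Complex II split by subunit. The membrane anchors SDHC and SDHD were higher in the V4 library and the catalytic flavoprotein gene SDHA was lower. SDHC had 3196 and 3866 counts, a ratio of 1.19 (1.138 to 1.251). SDHD had 3108 and 3452, a ratio of 1.10 (1.04 to 1.15). SDHA had 207 and 144, 1.46-fold lower (1.17 to 1.82). The iron-sulfur subunit gene SDHB had 4310 and 4291 counts, a ratio of 0.98 (0.94 to 1.02). The higher values of SDHC and SDHD and the lower value of SDHA kept their side of 1 with a length or GC trend removed. SDHA has close pseudogene copies, and the sources do not state what was done with reads that fit both.

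Complex III had 6 of 9 members lower, 1 higher and 2 neither, with a median log2 ratio of -0.05 (-0.02 without the length trend). A pair of its small subunits lay lowest. UQCR11 had 2411 and 1751 counts, 1.40-fold lower (1.31 to 1.49), and UQCR10 had 937 and 735, 1.29-fold lower (1.17 to 1.43). The log2 ratio of UQCR11 was -0.48, and it was -0.37 without the length trend and -0.35 with a GC trend removed. That of UQCR10 was -0.37, -0.26 and -0.37 in the same order. All these intervals lay below 1. The core protein gene UQCRC2 was the higher one, with 5763 and 6781 counts and a ratio of 1.16 (1.12 to 1.20). UQCRC1, its partner in the core and the member of the complex with the most counts, had 10039 and 9802 counts. It was 1.04-fold lower (1.01 to 1.07), and CYC1, the cytochrome c1 gene, at 8093 and 7325 counts, was 1.12-fold lower (1.09 to 1.16). With a GC trend removed both turned direction, UQCRC1 to a log2 ratio of 0.10 with an interval above 1, and CYC1 to 0.027 with an interval that included 1. Without the length trend the interval of UQCRC1 included 1, and that of UQCRQ, lower by 1.04-fold at 5747 and 5609 counts, turned to lie above 1. The Rieske protein gene UQCRFS1 had 2415 and 2373 counts, and UQCRB, a ubiquinone-binding subunit, 1354 and 1448, both with intervals that included 1. The interval of UQCRFS1 lay below 1 with either trend removed, and that of UQCRB above 1 without the length trend. UQCRH and its near copy UQCRHL had 2122 and 3118 counts in the V1 library, and 1985 and 2870 in the V4 library. How reads were divided between these near copies is unknown, so their values are uncertain.

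Promoter windows were read for members on both sides of 1 in complexes I to III, since genes of one complex went different ways. RefSeq gives a window of 250 bases before and 50 after the start (GRCh38.p14) for 61 members. Each line gives the strand of the gene, 5′ to 3′, with capitals for exact matches, on either strand, to GCGCATGCG (NRF1), CCGGAAG (ETS) or AAGATGG (YY1). The windows are UQCR11 at chr19:1605413-1605712 (minus strand), NDUFS6 at chr5:1801157-1801456 (plus), SDHD at chr11:112086623-112086922 (plus) and UQCRC2 at chr16:21953111-21953410 (plus).
UQCR11: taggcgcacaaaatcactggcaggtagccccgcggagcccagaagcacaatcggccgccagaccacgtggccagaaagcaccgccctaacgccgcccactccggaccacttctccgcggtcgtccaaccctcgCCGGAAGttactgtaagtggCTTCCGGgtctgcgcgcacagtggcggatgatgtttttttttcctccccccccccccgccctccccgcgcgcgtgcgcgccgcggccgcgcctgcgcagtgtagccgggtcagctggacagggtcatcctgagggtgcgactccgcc
NDUFS6: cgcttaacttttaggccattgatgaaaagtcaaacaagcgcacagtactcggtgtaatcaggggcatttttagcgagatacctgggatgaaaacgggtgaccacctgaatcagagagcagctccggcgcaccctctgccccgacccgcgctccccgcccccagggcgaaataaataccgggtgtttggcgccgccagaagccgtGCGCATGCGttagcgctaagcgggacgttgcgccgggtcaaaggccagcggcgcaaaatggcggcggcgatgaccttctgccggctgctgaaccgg
SDHD: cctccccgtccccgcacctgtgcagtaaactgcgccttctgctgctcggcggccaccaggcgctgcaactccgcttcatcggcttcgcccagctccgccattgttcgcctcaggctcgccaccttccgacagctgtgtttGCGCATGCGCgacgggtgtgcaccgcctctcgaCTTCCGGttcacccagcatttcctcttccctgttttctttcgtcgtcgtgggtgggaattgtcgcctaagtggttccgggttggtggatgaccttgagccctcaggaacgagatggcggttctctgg
UQCRC2: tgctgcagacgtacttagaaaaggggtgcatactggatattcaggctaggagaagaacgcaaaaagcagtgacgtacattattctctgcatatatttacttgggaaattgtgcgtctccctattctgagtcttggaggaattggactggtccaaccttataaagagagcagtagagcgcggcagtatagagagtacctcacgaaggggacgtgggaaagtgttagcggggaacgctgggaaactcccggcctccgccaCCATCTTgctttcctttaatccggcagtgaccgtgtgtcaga

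NDUFS6, lower in the V4 library, and SDHD, higher in it, both hold the NRF1 letters, starting 46 and 110 bases before the start. UQCR11 has the ETS letters at 2 places and SDHD at 1, and UQCRC2 has the YY1 letters 8 bases after the start. Of the 61 member windows, 9 (14.8%) held the NRF1 letters, 18 (29.5%) the ETS letters and 16 (26.2%) the YY1 letters. In all 35116 RefSeq windows of this length the shares were 1.92%, 10.3% and 5.84%. Among the 34 members with a window that were lower, 6 held NRF1, 13 ETS and 8 YY1 letters. The 3 that were higher and had a window held 1, 2 and 1. A match describes letters only and says nothing about binding in these cells.

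Complex IV was narrowly spread. Of 10 kept members, 7 were lower, 0 higher and 3 neither, in a range from -0.22 to 0.04 and with a median of -0.11 on the log2 scale. COX5B, with the most counts, had 7448 and 6818 counts, 1.11-fold lower (1.07 to 1.14). The small subunit genes COX6A1, COX6B1 and COX8A had 2211, 6342 and 2971 counts in the V1 library. In the V4 library they had 1923, 5609 and 2624 counts. COX6A1 was 1.17-fold lower (1.10 to 1.24), and COX6B1 and COX8A each 1.15-fold lower (1.11 to 1.19 and 1.09 to 1.21). COX5B, COX5A, COX7A2 and COX6C lost their calls without the length trend, and COX8A without the GC trend. NDUFA4, named for complex I and known as a subunit of complex IV, had 4524 and 4591 counts, a ratio of 1.00 (0.96 to 1.04). COX7B had 3063 and 3201 counts and COX7C 3654 and 3599, with intervals that included 1. Without the length trend the intervals of COX7B and COX7C lay above 1. With a GC trend removed those of COX7C and NDUFA4 lay below 1. Without the length trend the median of the complex was -0.0054.

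Isoforms known from other tissues were at or near the detection floor. COX7A1, the heart and muscle isoform, had 4 and 3 counts. COX8C had 4 and 4, and the testis isoform COX6B2 had 6 and 0, where 0 allows a level of up to 0.312 CPM by counting error. None of these was kept. Their widely expressed relatives COX7A2, COX8A and COX6B1 had between 2624 and 6342 counts in each library. NDUFA4L2, a paralogue of NDUFA4 known for induction in hypoxia, had 32 and 30 counts, a ratio of 0.92 (0.54 to 1.57).

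In ATP synthase the gene with the most counts was slightly higher under TMM scaling and 4 others were lower. ATP5B, which encodes the catalytic beta subunit, had 44673 and 46521 counts, a ratio of 1.03 (1.01 to 1.04). Scaled by total counts its log2 ratio was 0.0041 in place of 0.04, and its interval included 1. Of 9 kept members, 4 were lower, 1 was higher and 4 were neither, with a median of -0.10. The lower ones were ATP5I and ATP5E, both small subunits, ATP5J (coupling factor 6), and ATP5O, of the stalk that holds the head still. ATP5I had 1504 and 1343 counts, 1.14-fold lower (1.05 to 1.22), and ATP5J 650 and 584, 1.13-fold lower (1.01 to 1.26). ATP5I, ATP5J and ATP5O lost their calls without the length trend, and ATP5I also without the GC trend. ATP5H, of the same stalk, had 248 and 276 counts and ATP5L, of the membrane part, 2742 and 2757, with intervals that included 1. The interval of ATP5L lay above 1 without the length trend. Without the length trend the median was -0.0050.

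Several genes of subunits that the enzymes need had few or no counts. ATP5A1, the alpha subunit gene, was listed at 0 in both libraries, although alpha and beta stand in equal number in the enzyme. The proteolipid ring genes ATP5G2 and ATP5G3 had 3 and 25 counts in the V1 library and 7 and 22 in the V4 library. NDUFS8, a core iron-sulfur subunit of complex I, had 6 counts in each. The rule found no row for several subunit genes, among them ATP5G1, ATP5C1, ATP5D and COX4I1. Of complex I it found none for NDUFB3, NDUFB5, NDUFB6, NDUFC1 and NDUFS5. The members therefore do not cover every nuclear subunit, in complex I as elsewhere. Low values went with the number of curated transcripts of a gene in RefSeq. The 36 members with 1 transcript had medians of 429 and 363 CPM per kilobase. The 26 members with 3 or more had medians of 27.6 and 21.6. Under 100 counts in both libraries were 4 of the 36 and 9 of the 26. NDUFS8 has 1 curated transcript and SDHC has 13, so the relation had exceptions. The sources do not state how reads that match several transcripts were counted, and its part in these levels was not tested. Members named above for the most counts have them in this table, and no order of expression between genes is drawn from it.

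The subunits encoded in mitochondrial DNA lay on the other side of 1. All 13 had an interval above 1, as had 35.6% of the 1725 genes at a mean CPM of at least 100. Log2 ratios of the 13 ran from 0.06 to 0.65, with a median of 0.20. High counts make their intervals narrow: the fewest were those of ND3, at 16734 and 18393. Complex I genes of the mitochondrial genome had a median of 0.24 beside -0.19 for the nuclear ones (-0.10 without the length trend). Without that trend the median of the 13 mitochondrial genes was 0.30, and with a GC trend removed in its place it was 0.16. In complex IV the medians were 0.12 and -0.11, and in ATP synthase 0.24 and -0.10. Without the length trend the nuclear medians of complex IV and ATP synthase were -0.0054 and -0.0050. With a GC trend removed they were -0.12 and -0.10. The single gene of complex III, CYTB, stood at 0.22 beside a nuclear median of -0.05. In ATP synthase the nuclear gene ATP5B was also above 1 under TMM scaling, though not by total counts. The 13 genes took 14.9% of V1 counts and 16.9% of V4 counts. With all mitochondrially encoded counts left out of the totals, members took 2.79% and 2.67%. The difference between the genomes has no test with 1 library per group.

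**Figure D4:**
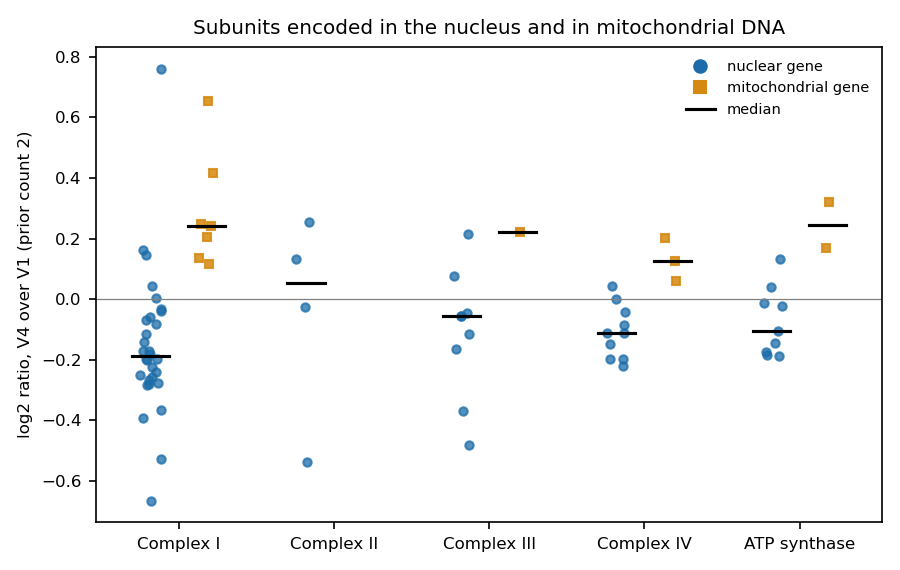
Log2 ratio of V4 over V1 (vertical) for each kept nuclear subunit gene (circles) and each mitochondrially encoded one (squares), by complex, with bars at the medians. Points are spread sideways at random. All squares lie above 0, and most circles lie below 0.

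The 8 members that are no chain subunits had 7 kept, 3 lower, 0 higher and 4 neither. COX7A2L, a factor of respiratory supercomplexes, had 1429 and 1247 counts and was 1.16-fold lower (1.08 to 1.255). ATP5SL, known as an assembly factor of complex I despite its name, had 995 and 866 counts and was also lower, a call that it lost under either trend. The read-through gene NDUFC2-KCTD14 was listed at 0 in both libraries.

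Genes that build and supply the complexes were mixed. Median log2 ratios of assembly factors were -0.05, -0.08, -0.08 and -0.16 for complexes I to IV and 0.02 for ATP synthase. Without the length trend they were 0.04, 0.0049, -0.05, -0.05 and 0.13 in that order. With a GC trend removed they were -0.10, -0.05, -0.01, -0.13 and 0.02. The counts below stand beside 21.0% lower and 19.9% higher over all kept genes. Cytochrome c itself (CYCS) had 7644 and 7751 counts, a ratio of 1.00 (0.97 to 1.03), and NDUFAB1, the acyl carrier subunit whose symbol the rule does not take, 3202 and 3232. Of 11 kept assembly factors of complex I, 3 were lower and 1 higher. TIMMDC1, with the most counts, was 1.16-fold lower (1.09 to 1.22), and COA1 was higher at a ratio of 1.37 (1.13 to 1.65). Of 17 factors of complex IV, 5 were lower and 2 higher, with TACO1, a translational activator of COX1, 1.20-fold lower (1.12 to 1.29). The complex III factor UQCC2 had 3280 and 2613 counts, 1.27-fold lower (1.21 to 1.34), while LYRM7, which matures the Rieske protein, was higher at 1.21 (1.04 to 1.41). For complex II, 1 of 4 factors was lower, ACN9 at 1.22-fold (1.06 to 1.41). For ATP synthase 1 of 3 was lower, TMEM70 at 1.23-fold (1.12 to 1.36).

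Regulators of mitochondrial genes did not move one way. TFAM, which packages and transcribes mitochondrial DNA, had 1594 and 1802 counts, a ratio of 1.12 (1.04 to 1.19). POLRMT, the mitochondrial RNA polymerase gene, had 99 and 55 counts and was 1.82-fold lower (1.30 to 2.59). YY1 had 4056 and 4196 counts, with an interval that included 1, and the coactivator gene PPARGC1A had 1 and 5. NRF1 and GABPA are not analysed here. Of 65 kept mitochondrial ribosomal protein genes, 24 (36.9%) were lower and 9 (13.8%) higher, beside 21.0% and 19.9% of all kept genes. Their median was -0.08, and it was -0.0087 without the length trend and -0.07 with a GC trend removed. Of 17 import genes, 8 (47.1%) were lower and 1 higher. Their medians, in the same order, were -0.12, -0.09 and -0.12. Of 13 tricarboxylic acid cycle enzymes 2 were lower, 5 higher and 6 neither, with medians of 0.05, 0.06 and 0.03. Glycolytic enzymes had 4 of 13 lower, 1 higher and medians of -0.02, 0.02 and 0.07.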

How the data were processed

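The authors deposited read counts, as whole numbers for each gene symbol, from single-end reads of poly(A) RNA per the labels' protocols. The submitters' processing notes name build hg19. For aligner, counting program, annotation, strand, shared reads and the summing of repeat runs, the sources used give nothing. Names tied V1 and V4 to their columns, and 1 column whose name fits no sample's labels was left unused, so nothing was compared with the empty vector. Rows named by a date (22, with 0.0504% and 0.0532% of counts) stayed out of totals. Counts of 21 symbols on several rows were summed.

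TMM factors (edgeR 4.0.16, R 4.3.3) were 1.01 for V1 and 0.988 for V4. A prior count of 2 entered the log2 values, and none the printed ratios and folds. Intervals are 95% exact (Clopper-Pearson) conditional binomial ones (scipy 1.17.1) and cover counting error only: the labels name no molecular identifiers, so PCR copies may count as molecules. A count of 0 was read against a floor of 3 counts. Counts of called genes use the interval, with or without a fold. The code for the calls was run on simulated counts with known changes. Length and GC are medians over GENCODE v29 transcripts (GRCh38), used without coordinates, and were found for 95.7% of kept genes. Lowess trends (fraction 0.3) came from statsmodels 0.14.6. Of the members, 75 had a RefSeq transcript number and 61 a promoter window.

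Members and gene lists were chosen with earlier results of these data known. Full values are given for the most abundant, the 3 lowest and the 3 highest kept members of each complex, those past 1.5-fold, the tissue isoforms and the subunit c genes. An item that this rule takes is not reported here, though counts and medians include it. Of other lists, the most abundant gene and the largest ratios were eligible. Further members and KRT8, EPCAM, the markers of other cell types, UQCRQ, UQCRHL and LYRM7 were named for their role. Figures were drawn with matplotlib 3.10.9.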

Additional observations from a re-analysis of the deposited data

How the results depend on the processing

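Each alternative scaling (median-of-ratios, total counts, total counts without mitochondrial genes, upper quartile) and each prior count left the members' counts within 1.5 times and the medians within the usual width of a member's counting interval. The members with an interval below 1 numbered 39, and 38 to 43 under those scalings. With the transcript length trend removed, 24 lay below 1 and 10 above, 0 were at least 1.5-fold lower, and the medians of complexes II and IV moved to 0.14 and -0.0054, those of complex I, complex III and ATP synthase to -0.10, -0.02 and -0.0050. Scaling by total counts moved ATP5B to 0.0041. With a GC trend removed the complex I median was -0.09, and CYC1 and UQCRC1 reversed, to 0.027 and 0.10. The counts past 1.5-fold, 1 lower and 1 higher, rest on NDUFC2 and NDUFS1, which have under 100 counts. At a mean CPM of at least 10 they were 0 and 0, and without a filter 2 were lower, the second being COX6B2. At 2-fold they were 0 and 0, and at a gap of at least 25% 7 were lower. Among genes with 1 curated RefSeq transcript, an alternative chosen after seeing the data, they were 0 and 0. Fewer genes were compared there: of 33 members, 22 (66.7%) lay below 1 and 2 (6.06%) above. Over the 3439 genes of that setting the shares were 26.6% and 23.2%. In the main setting 56.5% of 69 members lay below 1. Of 315 values of single members under other settings, 285 stayed within the interval of counting error, 28 moved past it and 2 reversed. Apart from ATP5B by total counts, the values that moved or reversed were those with a length or GC trend removed. Settings that change only the filter leave a member's value as it was, so their values could not move. Leaving out a replicate was not possible with 1 library per group. No paired analysis was possible because each group has 1 library.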
